A study of Homo sapiens with 4 samples.

Results

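Olfactory receptor genes sit in dense clusters, and 5 windows over such clusters were examined for peaks of CDK8, the kinase of the Mediator complex. The windows are 4400 to 6200 kb (window A), 55000 to 56800 kb (window B) and 57900 to 59300 kb (window C) of chromosome 11, 247600 to 248800 kb of chromosome 1 (window D) and 20200 to 20700 kb of chromosome 14 (window E), in GRCh37/hg19. A peak belonged to a window when its centre lay inside it. The windows cover 6.7 Mb and held 15 of the 56111 peaks in 3 deposited lists, with 5 peaks in each list. The lists come from chromatin immunoprecipitation and sequencing (ChIP-seq) of HCT116, an established human colorectal cancer line that is 1 line and so 1 genetic background. There was 1 CDK8 library from cells kept for 24 h in normoxia and 2 (replicates 1 and 2) from cells kept for 24 h in 1% oxygen. All 3 used the same antibody to CDK8. Whether the hypoxia pair represents separate cultures is not in the labels, so their spread may be technical; an input library was not analysed here.

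Olfactory receptors are G protein-coupled receptors that detect odorants. Each olfactory sensory neuron is known to express a chosen receptor gene while the other members of the family stay silent, packed in heterochromatin, and most other tissues express few of them. Mediator carries signals from transcription factors at enhancers and promoters to RNA polymerase II, and CDK8 belongs to its dissociable kinase module. Windows chosen as places with little expected transcription therefore serve as a negative landscape for a CDK8 map. Silence itself was not measured: the series holds peak lists and no RNA.

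The windows were chosen by position and are known to hold other genes too. By gene order in RefSeq (GRCh38.p14, used for names and neighbours alone), 5 runs of olfactory receptor genes on these chromosomes, with at most 10 other genes between members, held 332 olfactory receptor genes and pseudogenes, of which 175 were protein-coding. Among them stood 25 other protein-coding genes, including 9 TRIM genes, which encode tripartite-motif proteins with roles in antiviral defence and ubiquitin transfer, and the 5 genes of the beta-globin cluster. The chromosome 11 run with the beta-globin genes alone held 103 olfactory receptor genes and 20 other protein-coding genes, among them TRIM5, TRIM6, TRIM22 and TRIM34. Past OR5B21, at the end of another chromosome 11 run, came 12 protein-coding genes before the next olfactory receptor gene, OR5AN2P. They include LPXN, ZFP91, CNTF, FAM111A, FAM111B, DTX4 and MPEG1. Neither these 12 genes nor the run that starts at OR5AN2P is in the counts above. The runs were built in another genome build than the peaks, so their limits do not equal those of the windows, and no peak was assigned to a gene.

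Promoters of olfactory receptor genes were poor in CG dinucleotides, which cluster in the CpG islands of many promoters. They were read from RefSeq promoter windows of 300 bases, 250 before and 50 after the listed start. The run with the beta-globin genes and the one on chromosome 14 were left out, because under 80% of their protein-coding olfactory receptor genes matched the table. In the other 3 runs 91 of 104 genes (87.5%) matched, giving 92 windows because OR2L13 has 2 listed starts. Their median GC content was 36.3% with a median of 1 CG, against 62.7% and 21 CG over the 21873 windows of other protein-coding genes in the table, which holds 79.0% of those genes. At least 10 CG were found in 1 of the 92 windows (1.09%), at 1 of the starts of OR2L13, and in 71.1% of the others. The motif ACGTG, the core of the sequence that hypoxia-inducible factors recognise, read on both strands and holding a CG itself, was in 5.43% of the olfactory receptor windows and in 23.2% of the others. In 39 of the 92 windows (42.4%) the listed start was the letters ATG, against 2.23% of the others, so many of these gene models may begin at the coding start, not at the start of the transcript. Shown here to contrast the 2 kinds of promoter are those of OR5AP2 on chromosome 11 and OR11L1 on chromosome 1, each chosen as nearest to the median CG count of its run, with ties broken by nearness to the median GC content, and that of TRIM58, a TRIM gene in the same run as OR11L1. Sequences are from RefSeq, GRCh38.p14, written 5′ to 3′ on the gene's strand, with each CG in capitals.
OR5AP2 (chromosome 11, minus strand): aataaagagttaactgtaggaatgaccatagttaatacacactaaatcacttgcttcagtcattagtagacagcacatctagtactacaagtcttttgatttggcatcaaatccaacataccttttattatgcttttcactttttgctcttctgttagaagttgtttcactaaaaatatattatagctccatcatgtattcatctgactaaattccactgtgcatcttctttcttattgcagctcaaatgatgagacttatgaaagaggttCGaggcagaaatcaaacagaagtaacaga
OR11L1 (chromosome 1, minus strand): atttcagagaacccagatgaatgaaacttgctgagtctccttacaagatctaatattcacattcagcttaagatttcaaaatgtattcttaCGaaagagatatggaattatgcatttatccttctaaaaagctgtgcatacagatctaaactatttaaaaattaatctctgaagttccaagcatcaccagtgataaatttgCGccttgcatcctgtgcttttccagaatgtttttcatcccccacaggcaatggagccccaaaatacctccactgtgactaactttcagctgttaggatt
TRIM58 (chromosome 1, plus strand): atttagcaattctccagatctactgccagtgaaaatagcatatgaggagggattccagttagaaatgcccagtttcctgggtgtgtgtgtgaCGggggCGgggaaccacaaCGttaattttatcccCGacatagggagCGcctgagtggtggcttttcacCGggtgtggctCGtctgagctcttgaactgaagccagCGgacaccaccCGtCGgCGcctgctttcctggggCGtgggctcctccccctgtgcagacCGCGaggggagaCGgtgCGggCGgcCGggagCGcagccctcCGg
OR5AP2 had 1 CG, OR11L1 had 2 and TRIM58 had 20. None of the 3 held ACGTG. In OR5AP2 and OR11L1 the listed start is the letters ATG, which is not so in TRIM58. Both olfactory receptor windows shown may therefore begin at the coding start, and the CG of OR5AP2 lies after its listed start.

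**Figure D1:**
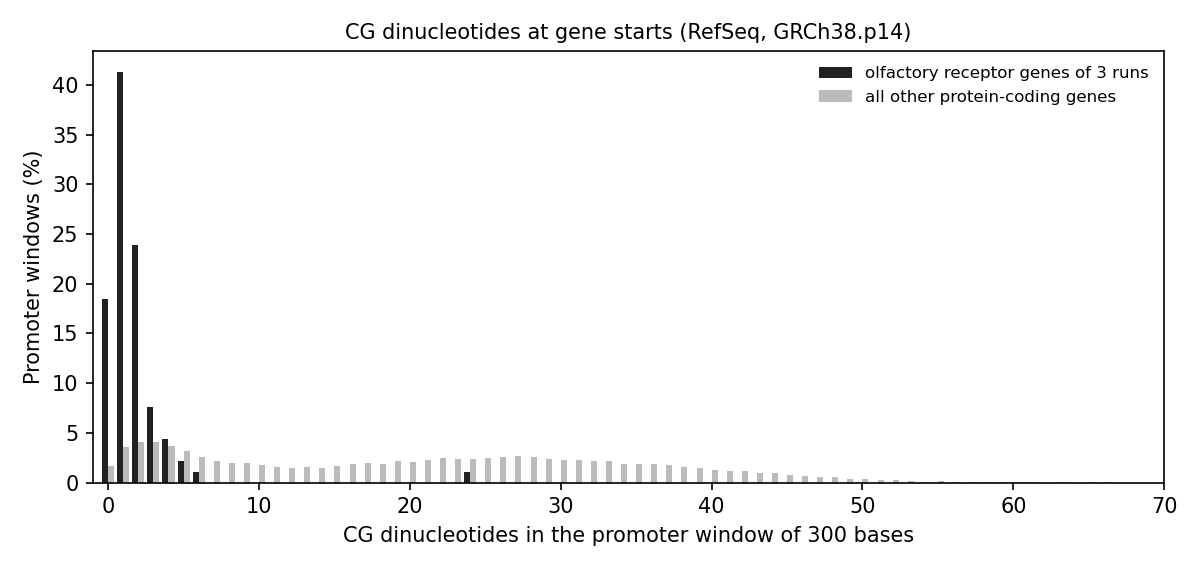
CG dinucleotides per promoter window of 300 bases (horizontal axis) against the share of promoter windows in percent (vertical axis), for 92 windows of olfactory receptor genes (black) and 21873 of other protein-coding genes (grey). Olfactory receptor windows pile up around a median of 1 CG. The others have a median of 21 but spread widely, and their most frequent count was 2 (4.055%).

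The first comparison set the density of peaks in the windows against the remaining 463.6 Mb of chromosomes 1, 11 and 14. Density in the windows was 0.746 peaks per Mb in each library (95% interval 0.242 to 1.74, exact Poisson). In the rest, normoxia had 7.79 per Mb, hypoxia replicate 1 had 8.15 and hypoxia replicate 2 had 5.62. The windows thus had 0.0959 times the density of the rest in normoxia (0.0311 to 0.224). The ratio was 0.0916 for hypoxia replicate 1 (0.0297 to 0.214) and 0.133 for hypoxia replicate 2 (0.0431 to 0.310). At the density of the rest they would have held 52.2, 54.6 and 37.7 peaks, where each list had 5. All 3 libraries were lower in the windows, and the mean log2 ratio was -3.25 ± 0.29 (SD, n = 3). A 2-sided exact permutation test over the 3 libraries (sign flips of the log2 ratio) gave p = 0.25, the smallest that 3 libraries allow. With all 3 ratios below 1 no other p was possible, so no conclusion is drawn from it. The 3 libraries pool both oxygen levels and share the cell line and the windows, so they are not independent replicates. Intervals are exact and cover counting error only, and neighbouring peaks are not independent. The lists carry no read counts, so the sequencing depth behind them is unknown.

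Bins of 100 kb gave the same picture with less weight on crowded places. In normoxia 5 of the 67 bins of the windows held a peak, 7.46% (Wilson 95% interval 3.23 to 16.3), against 33.6% of 4639 bins in the rest. In hypoxia replicate 1 it was 4 bins, 5.97% (2.35 to 14.4), against 34.2%. In hypoxia replicate 2 it was 3 bins, 4.48% (1.53 to 12.4), against 28.4%. Over the 3 lists together 6 of 67 bins held a peak, against 39.7% in the rest. Most bins of the rest were also empty, so a bin without a CDK8 peak was the usual state of these chromosomes, and the windows held fewer filled bins still.

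**Figure D2:**
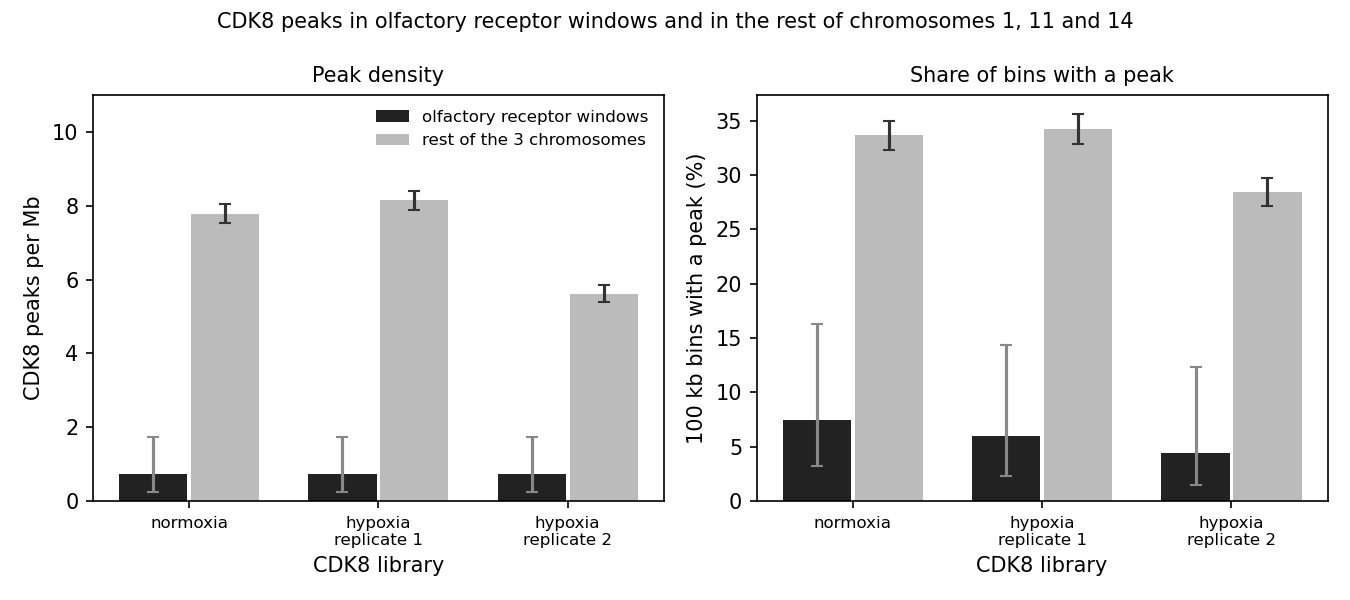
Left, CDK8 peaks per Mb with exact Poisson 95% intervals; right, percent of 100 kb bins with a peak, with Wilson 95% intervals; both by library, for the olfactory receptor windows (black) and the rest of chromosomes 1, 11 and 14 (grey). The windows stood at 0.746 peaks per Mb in each library, and the rest at 5.62 to 8.15.

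The 15 peaks all lay in windows A and C. Windows B, D and E, 3.5 Mb in all, held 0 peaks in each library, which allows up to 0.857 peaks per Mb per library. Limits for 0 peaks in this paragraph are 3 counts over the length, a 1-sided bound lower than the 2-sided Poisson one used above. At the density of the rest of their chromosomes they would have held 28.0, 29.4 and 20.2 peaks in normoxia, hypoxia replicate 1 and hypoxia replicate 2. In window E, 0 peaks in 0.5 Mb allows up to 6 per Mb. The rest of chromosome 14 had 6.68 and 6.80 in normoxia and hypoxia replicate 1, slightly above that limit, and 4.63 in hypoxia replicate 2. At those densities window E would have held 3.34, 3.40 and 2.32 peaks. With so few, a lower density of window E alone was not established in any library. For window B the limit was 1.67 per Mb, against 8.52, 8.99 and 6.10 in the rest of chromosome 11. For window D it was 2.5 per Mb, against 7.79, 8.17 and 5.71 in the rest of chromosome 1. The chromosome 1 cluster of window D is known to include TRIM58, whose CG-rich promoter is shown above. No list had a peak anywhere in that window. By gene order TRIM58 was 1 of 2 protein-coding genes of that run that are not olfactory receptor genes. A link between the CG content of promoters and CDK8 peaks was not tested.

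The empty windows belonged to longer empty stretches. Window B lay in a stretch of 5485 kb (51593356 to 57078662) without a peak in any list, which takes in the centromere of chromosome 11. It ranked 2nd of 1495 such stretches on the chromosome, but its length rests on a peak of hypoxia replicate 1. Taken list by list, the stretch over window B was 9063 kb in normoxia and 9076 kb in hypoxia replicate 2, the longest on the chromosome in both, and 5485 kb in hypoxia replicate 1, where it ranked 2nd. The peak that ended this stretch on the centromeric side was listed in hypoxia replicate 1 alone; the last peaks before window B were 6985 and 6998 kb away in normoxia and hypoxia replicate 2 and 3407 kb away in hypoxia replicate 1. It lies in the 1 Mb from 51 to 52 Mb, where hypoxia replicate 1 alone listed most regions. On the other side peaks resumed 279 kb after window B in all 3 lists. Window D lay in a stretch of 1637 kb that ranked 12th of 2629 on chromosome 1, and window E in one of 1735 kb that ranked 7th of 787 on chromosome 14. Before window E no peak of normoxia or hypoxia replicate 2 was listed on chromosome 14, and hypoxia replicate 1 had its nearest at 1162 kb. Over the 3 lists together, stretches that touched no window reached 6717 kb on chromosome 11, 21050 kb on chromosome 1 and 6335 kb on chromosome 14. On chromosome 11 the longest of these was 6717 kb in normoxia and 7119 kb in hypoxia replicate 2, both shorter than the stretch over window B. All lengths are in reference coordinates, with no account of unsequenced bases or of places where reads cannot be mapped uniquely. An empty stretch is therefore not shown to be free of CDK8, and the same limit holds for the densities.

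Peaks came back within 1 Mb of most edges, at differing distances. Within 1 Mb on either side of the windows normoxia had 62 peaks (7.29 per Mb), hypoxia replicate 1 had 67 (7.88 per Mb) and hypoxia replicate 2 had 46 (5.41 per Mb), near the densities of the whole rest. The nearest peak outside any edge lay 12.9 to 13.1 kb after window C and was in all 3 lists, at percentiles 18.5, 57.8 and 38.7 of normoxia, hypoxia replicate 1 and hypoxia replicate 2. A percentile here is the share of a list's peaks that score no higher, so 100 is the best peak. The nearest peak inside any edge was 387.6 kb from the end of window C. The 1 Mb before window B and that before window E held 0 peaks in each list, while the 1 Mb after window E held 15, 20 and 10.

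**Figure D3:**
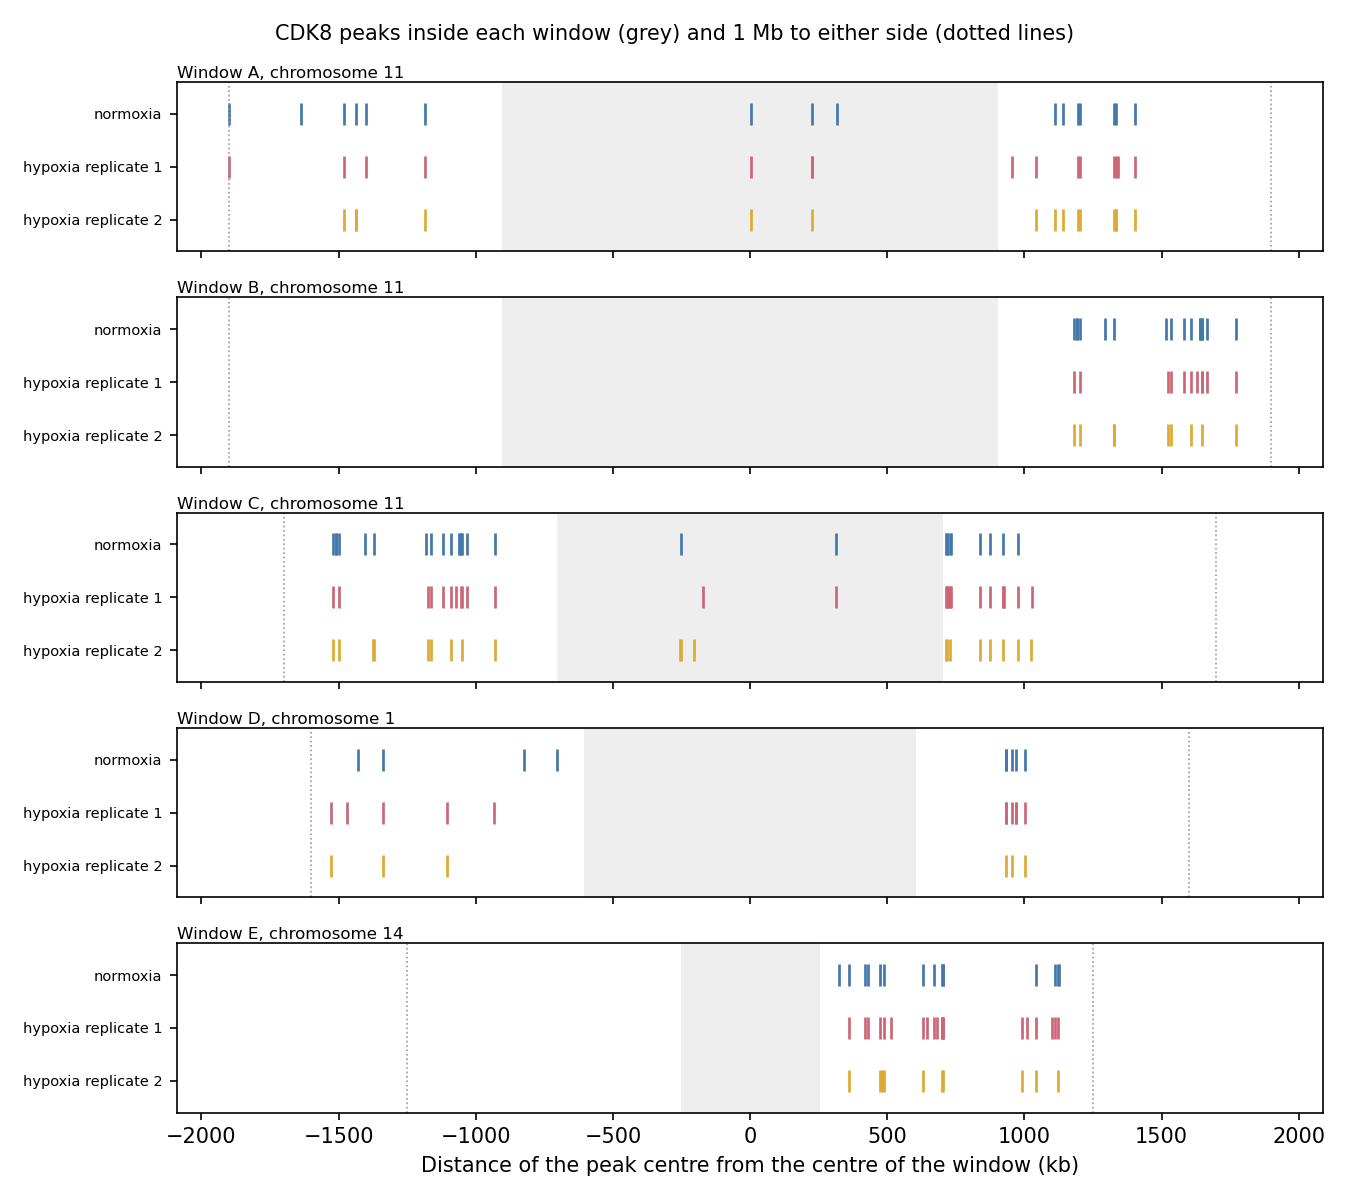
Each mark is a CDK8 peak, placed by the distance in kb of its centre from the centre of its window (horizontal axis), with 1 row per library in each panel; the grey band is the window and the dotted lines are 1 Mb beyond it. Windows B, D and E hold no mark, and windows A and C hold a few marks away from their edges.

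Window A covers the 11p15 cluster, in which the beta-globin genes and several TRIM genes are known to lie between olfactory receptor genes. It had 3, 3 and 2 peaks in normoxia, hypoxia replicate 1 and hypoxia replicate 2, all between 5301860 and 5617577. The first 901.9 kb of the window were empty in every list. A region of 302 bp at chr11:5301860-5302161 was listed in all 3 libraries, as peaks of 269, 229 and 251 bp. It ranked at percentile 63.2 of the normoxia list, 70.3 of hypoxia replicate 1 and 47.2 of hypoxia replicate 2. It stood alone, with 1185 kb to the region before it and 223.5 kb to the next, and was the best-ranked of the 9 regions by its lowest percentile.

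A second region in all 3 libraries, 620 bp at chr11:5526442-5527061, was listed as peaks of 620, 317 and 228 bp. It ranked at percentile 61.9 of the normoxia list, 70.6 of hypoxia replicate 1 and 21.2 of hypoxia replicate 2. Hypoxia replicate 1 listed a further peak of 349 bp 0.464 kb before it (chr11:5525629-5525977), at percentile 4.44. Normoxia alone listed a peak of 260 bp at chr11:5617318-5617577, at percentile 28.8. These 2 shared regions were the members that every library listed; both ranked under percentile 80 of each list.

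Window C held 2, 2 and 3 peaks, and no region of it was in all 3 libraries. At chr11:58346722-58347242, a peak of 421 bp in normoxia (percentile 44.4) overlapped one of 263 bp in hypoxia replicate 2 (2.88). Hypoxia replicate 2 listed another of 387 bp 0.341 kb before it (chr11:58345994-58346380), at percentile 2.91. At chr11:58912229-58912512, a peak of 284 bp ranked at percentile 68.7 in hypoxia replicate 1, and one of 249 bp at 1.43 in normoxia. The normoxia peak there was thus among the lowest-scoring of its list. The remaining peaks were in 1 list each: 463 bp at chr11:58395143-58395605 in hypoxia replicate 2 (percentile 24.9) and 181 bp at chr11:58427014-58427194 in hypoxia replicate 1 (24.1), the shortest width that list holds on these chromosomes. In gene order, the olfactory receptor cluster over which window C was drawn is followed by other genes. They include ZFP91, a zinc-finger ubiquitin ligase, and FAM111A, a protease that acts at replication forks. Without an annotation of GRCh37/hg19, whether these genes lie inside window C, or near its peaks, was not determined.

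No member peak ranked near the top of its list. None of the 15 ranked above percentile 80 of its list, where 18.5%, 19.8% and 18.8% of the peaks in the rest of the same chromosomes lay in normoxia, hypoxia replicate 1 and hypoxia replicate 2. In normoxia the 5 percentiles ran from 1.43 to 63.2 with a median of 44.4, against a median of 48.3 in the rest. In hypoxia replicate 1 they ran from 4.44 to 70.6 with a median of 68.7, against 50.3. In hypoxia replicate 2 they ran from 2.88 to 47.2 with a median of 21.2, against 48.3. The middle of the members' ranks was therefore near the rest in normoxia, above it in hypoxia replicate 1 and below it in hypoxia replicate 2, with 5 peaks each and no test. Widths were modest: the medians were 269, 284 and 263 bp, against 380, 300 and 347 bp in the rest, and no member exceeded 620 bp where the rest reached 6051 bp.

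**Figure D4:**
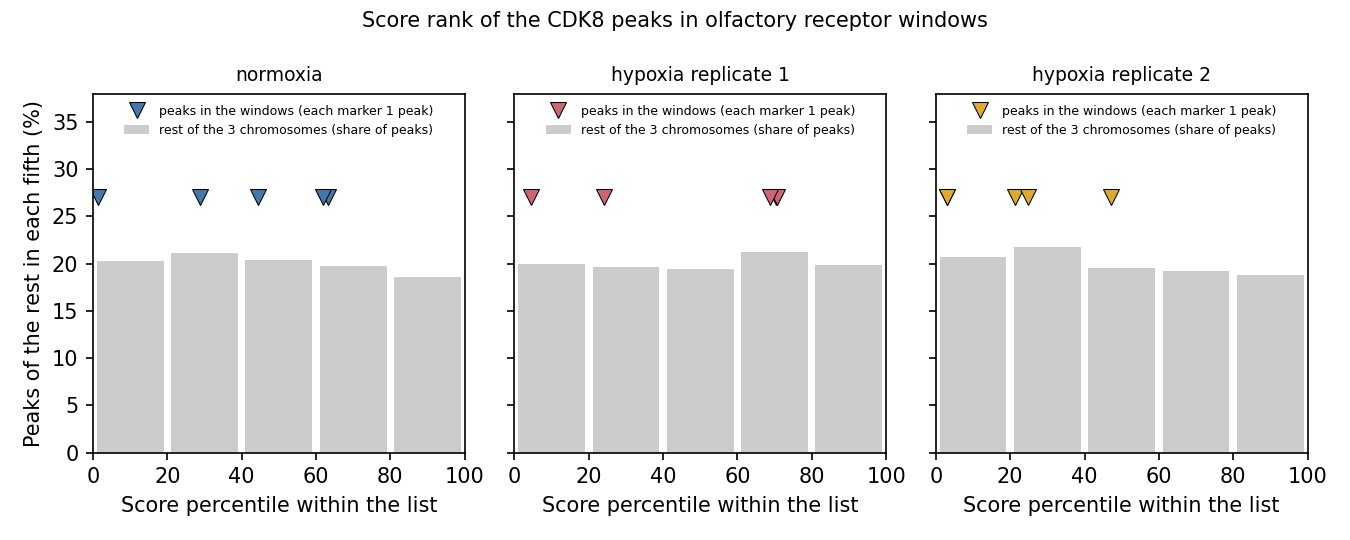
Score percentile within each list (horizontal axis) of the 5 peaks in the windows (triangles, some overlapping) over bars giving the percent of peaks of the rest of the 3 chromosomes in each band of 20 percentiles (vertical axis). No triangle lies above percentile 80, and the bars stay between 18.5% and 21.7%.

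The last comparison was between oxygen levels. Hypoxia had a mean of 0.746 peaks per Mb in the windows, with the same count of 5 in both libraries, and normoxia had 0.746, a difference of 0. No test was run, since the smallest p that permuting the labels of 1 library against 2 can reach is 1 in 3. Joining overlapping peaks gave 9 regions. Of these, 2 were in all 3 libraries (22.2%, Wilson interval 6.32 to 54.7), against 34.9% of 4905 regions in the rest. Another 5 were in 1 library alone (55.6%, 26.7 to 81.1), against 39.0% of the rest. Of these 5, normoxia alone had 1 (11.1%, 1.99 to 43.5), against 13.8% in the rest, and hypoxia replicate 1 alone had 2 (22.2%, 6.32 to 54.7), against 19.7%. Hypoxia replicate 2 alone also had 2 (22.2%, 6.32 to 54.7), against 5.50% (4.90 to 6.18) in the rest. The difference itself was not tested, and both regions lie in window C. The one at chr11:58345994-58346380 stands 0.341 kb from a region that normoxia and hypoxia replicate 2 both listed. Joined within 500 bp, they form 1 region, which is not in hypoxia replicate 2 alone. The pattern of a gain under hypoxia is a region in both hypoxia lists but absent from the normoxia list. It had 0 of 9 regions (Wilson interval 0 to 29.9%), against 3.06% in the rest. With 9 regions the intervals of the windows are wide.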

How the data were processed

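Per the labels, CDK8 was precipitated from formaldehyde-fixed, sonicated HCT116 chromatin. The submitters' processing notes name CASAVA 1.8.2, FastQC, Bowtie 0.12.7, MACS2 2.0.9 and GRCh37/hg19, with no roles or parameters. The authors deposited 3 peak lists, of 19862 (normoxia), 21993 (hypoxia replicate 1) and 14256 peaks (hypoxia replicate 2), named as merged without saying what was merged. The score the authors deposited for each peak has no stated scale and was used as a rank within its list. The labels and files state neither read filters nor the threshold for a peak, and a peak lacking from a list may lie under its threshold.

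Starts were counted from 1. The length of a chromosome ran from its earliest to its latest peak over the 3 lists, less the windows. Joined regions overlap or touch. Every region in 2 or more libraries was named, and up to 2 per library of the others. Counting was tested on simulated lists. Python 3.11.15, numpy 2.4.6, scipy 1.17.1 and matplotlib 3.10.9 were used. The windows and comparisons were chosen with earlier results of these data known. Sequences under the peaks were not used here. Alternatives are given in the closing section.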

Additional observations from a re-analysis of the deposited data

How the results depend on the processing

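The windows were less dense than the rest in each of 27 alternatives to the density ratios, which ran from 0 to 0.164, with upper bounds up to 0.384. Their highest value came from chromosome 11 alone. The alternatives reuse the same 3 lists, so they are not independent checks. Counting any overlap with a window returned the main ratios. With the better-scoring 50% of each list, the normoxia list kept 2 peaks, that of hypoxia replicate 1 kept 3 and that of hypoxia replicate 2 kept 0 (a ratio of 0), the hypoxia mean fell to 0.224 per Mb, hypoxia minus normoxia was -0.0746 per Mb, and 3 regions were left, 0 in all 3 libraries and 1 in 1 library alone. With equal list sizes (14256 best peaks) normoxia held 4, hypoxia replicate 1 held 3 and hypoxia replicate 2 held 5, and hypoxia minus normoxia stayed at 0. Joining within 500 bp left 3 regions in 1 library alone. Without window C, chosen after the data were seen, the counts were 3, 3 and 2, and the ratios 0.0727, 0.0695 and 0.0671, which for hypoxia replicate 2 is a fall from 0.133. Leaving out the 1 Mb on chromosome 11 where hypoxia replicate 1 alone listed most regions, also chosen afterwards, gave ratios of 0.0957, 0.0917 and 0.133. Without either hypoxia library the hypoxia mean stayed at 0.746 and its difference from normoxia at 0, with 7 regions, 3 of them in both remaining libraries and 4 in 1 alone. Fewer peaks or windows lower counts by construction; beyond that the cause was not tested. No paired analysis was possible because normoxia has 1 library and no replicate number in its labels. Distances to gene starts were not run, since no annotation of GRCh37/hg19 was used here.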
